A study of Mus musculus with 4 samples.

Results

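The combined effect of interferon-gamma (IFNγ) and benztropine was compared, gene by gene, with the sum of their single effects in cultured mouse cerebral cells enriched in astrocytes. For each probe set the departure from additivity was the log2 signal with both agents, minus that with benztropine, minus that with IFNγ, plus that of control. A negative value means that the combined level lay below the level expected from adding both single effects to control, and a positive value that it lay above. The probe sets described carried a gene symbol and exceeded, on each of the 4 arrays, the 95th percentile of the olfactory and vomeronasal receptor genes (*Olfr*, *Vmn1r* and *Vmn2r*, 1400 probe sets), which served as the background level. This left 13970 of 41345 probe sets, or of 25341 with a symbol.

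The cells, labelled primary astrocytes, were the adherent fraction of brain cultures from 3-day-old C3H/He pups after oligodendrocytes had been shaken off. They were left untreated (control) or exposed for 48 h to 250 IU/mL IFNγ, to 2.0 μM benztropine (BZT), or to the pair, and each condition was measured on 1 Affymetrix Mouse Gene 2.0 ST array. RNA of 3 independent cultures was mixed on each array, so no replicate array existed and no p-value, error or standard deviation between replicates can be given. A departure takes in the error of all 4 arrays, and with 1 array per condition array error and a true interaction of the agents cannot be separated.

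IFNγ binds a surface receptor that signals through JAK kinases to gamma-activated sites (GAS) in promoters. This raises transcription factors of the IRF family, which bind interferon-stimulated response elements (ISRE). Many of the antiviral genes induced in this way are also targets of type I interferons. Benztropine is an antagonist of muscarinic acetylcholine receptors that also binds the histamine H1 receptor and the dopamine transporter. Macrophages and microglia, which grow together with astrocytes in primary cultures, respond strongly to IFNγ.

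The arrays were alike in distribution, with medians over all probe sets between 6.65 and 6.68, background levels between 6.64 and 6.69, and highest signals between 13.5 and 13.52. Over the members, the median signal was 8.23 in control and between 8.25 and 8.27 on the other arrays. Of 19 measured astrocyte markers 17 were members, with a median departure of −0.04 and values from −0.14 to 0.06. Of 23 measured markers of microglia and macrophages 22 were members, while for T and NK cells 2 of 10 were, *Nkg7* and *Prf1*. The defining T cell genes *Cd3d*, *Cd3e*, *Cd3g*, *Cd4* and *Cd8a* were below background on every array.

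The departures centred slightly below 0. Their median over the members was −0.04 with an SD across probe sets of 0.155, and 61.6% were negative. Past 1.5-fold (0.58 on the log2 scale), 38 members lay below the sum and 10 above it, which is 0.272% and 0.0716% of the members. The same threshold was passed by 1.06% and 0.852% of all probe sets with a symbol. Below background on all arrays, 199 of 9933 named probe sets passed it downwards and 184 upwards, and over the receptor probe sets the SD was 0.32. Among the members, the SD was 0.186 over the 3493 of lowest mean signal, of which 16 were called below the sum, and 0.117 over the 3493 of highest, of which 7 were. The excess of calls below the sum depended on the centring of the arrays: with each array centred on its member median, 16 lay above and 23 below, and after a second quantile normalization 11 and 24. It depended also on the scale, since 17 lay above and 19 below on unlogged signals. No member departed past 2-fold in either direction.

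The single differences give the scale of these departures. IFNγ against control passed 1.5-fold upwards in 247 members (1.77%) and downwards in 15 (0.107%), and 49.4% of members were above 0. In the presence of benztropine the IFNγ difference passed it upwards in 1.4% and downwards in 25 members (0.179%). Benztropine against control passed it upwards in 12 members (0.0859%) and downwards in 1 (0.00716%), and in the presence of IFNγ in 9 (0.0644%) and 4 (0.0286%). The 48 departures were thus more numerous than the members past 1.5-fold in either benztropine comparison, and they carry the error of 4 arrays where a single difference carries that of 2.

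**Figure D1:**
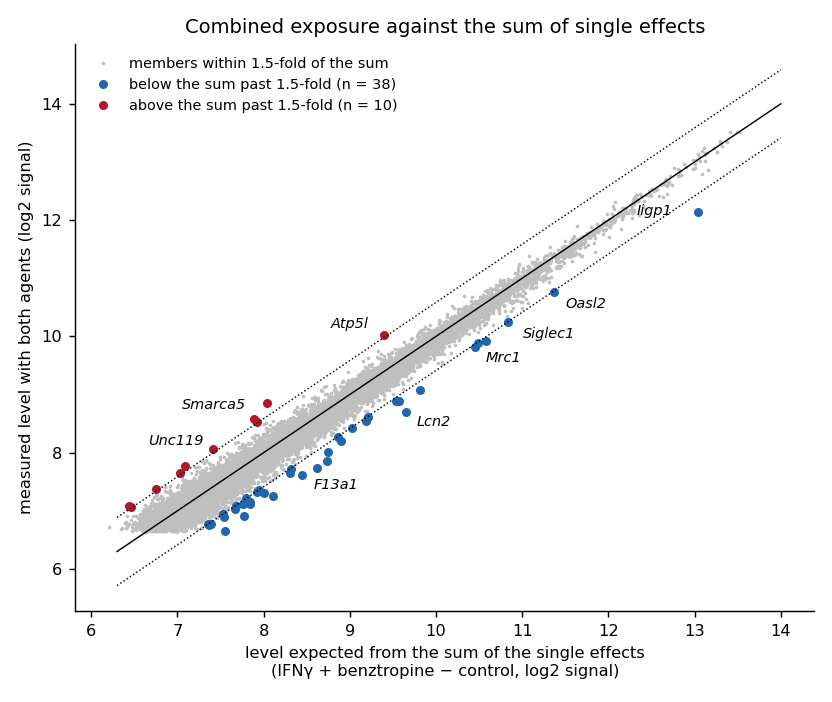
Measured log2 signal with both agents (vertical axis) against the level expected from the sum of the single effects (horizontal axis) for 13970 members. The solid line is additivity and the dotted lines are 1.5-fold departures, with 38 members below (blue) and 10 above (red). *Iigp1* has the highest expected level of those called.

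The last member called below the sum was *Siglec1* at −0.59 (1.5006-fold) and the next was *Tbcc* at −0.58. On the upper side *Pi4kb* stood at 0.60 and *Nrxn2* at 0.58. Of the probe sets nearest to the background level, *Armh4* and *Cxcl9* were just included through their benztropine signals of 6.65, and *Cd163l1* and *Fastkd3* were just left out through their control signals of 6.69. Signals under background in control, with benztropine or on further arrays left out 6 of 18 measured interferon-inducible GTPases, among them *Gbp4*, and 6 of 11 measured genes of MHC class II, among them *H2-Ab1*.

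A group of interferon-induced genes lay below the sum. In each of them benztropine alone gave a higher signal than control, whereas in the presence of IFNγ the benztropine difference was at most 0.20. The call itself favours this order, since a departure is the benztropine difference with IFNγ minus that without it. *Iigp1*, an immunity-related GTPase that attacks the vacuoles of intracellular pathogens, had log2 signals of 7.02 in control, 7.89 with benztropine, 12.16 with IFNγ and 12.14 with both agents. The sum of the single effects was 13.04, so the combined level was 1.86-fold below it. That sum was under the highest signal of the arrays, which belongs to another probe set, and a ceiling of the *Iigp1* probe set was not tested. Benztropine thus gave a 1.83-fold higher signal without IFNγ and a difference of −0.02 with it.

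*Ifi44l*, an interferon-induced antiviral gene, had 7.24 in control, 7.99 with benztropine, 9.08 with IFNγ and 9.08 with both agents. *Oas1g*, of the oligoadenylate synthetases that activate RNase L on double-stranded RNA, had 7.07, 7.79, 8.81 and 8.88 on the same arrays. In both genes the level with both agents was that of IFNγ alone within 0.07, and the departures were −0.74 and −0.65. *Oasl2*, which encodes a synthetase-like antiviral protein, rose from 8.46 in control to 9.27 with benztropine, 10.56 with IFNγ and 10.76 with both agents. Its departure of −0.61 fell inside 1.5-fold, at −0.58, −0.57 and −0.56, after quantile normalization, centring and loess correction.

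*Ddx60*, which encodes a helicase of the RNA-sensing pathway, had 6.88 in control, 7.35 with benztropine, 8.42 with IFNγ and 8.21 with both agents. *Usp18*, which encodes a protease that removes the ubiquitin-like modifier ISG15 and restrains type I interferon signaling, had 8.45, 9.01, 9.92 and 9.88. Both genes had a slightly lower signal with both agents than with IFNγ alone, and both departed by more than 1.5-fold, at −0.68 and −0.60. Centring shifts all departures alike, so that of *Usp18*, nearer to the threshold than that of *Oasl2*, also falls inside 1.5-fold. *Usp18* was picked out after its values were seen, as was *Oas2*, which had 7.34, 7.97, 8.40 and 8.46 and fell just inside the threshold at −0.58.

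**Figure D2:**
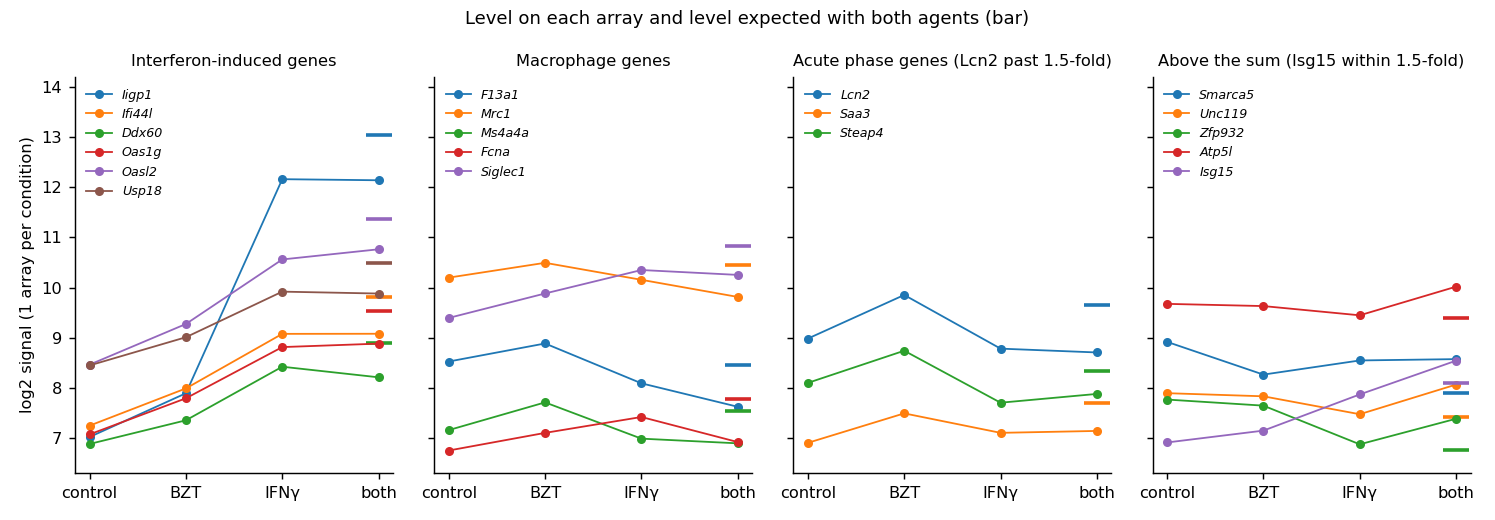
Log2 signal on each of the 4 arrays (1 array per condition, no error) for named members, with a horizontal bar of the same colour at the level expected from the sum of the single effects. For the interferon-induced, macrophage and acute phase genes each bar lies above the measured point with both agents, and for the genes above the sum it lies under that point.

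Over the list of antiviral effectors and sensors, 35 of 42 genes were measured and 29 were members. Benztropine alone gave a higher signal than control in 28 of these 29, against 57% of all members, and 3 passed 1.5-fold. In the presence of IFNγ it gave a higher signal in 23, against 42.7% of all members, and 1 passed 1.5-fold. The median difference was 0.23 without IFNγ and 0.10 with it. The median departure of the list was −0.16, beside −0.04 over all members, with 20 of 29 genes below 0 against 61.6% of all members, a share close to that background. The departure passed 1.5-fold downwards in 3 genes (*Oas1g*, *Oasl2* and *Usp18*) and upwards in 0, against 0.272% and 0.0716% of all members. After centring *Oasl2* and *Usp18* fall inside this threshold. *Ifi44l* and *Ddx60* were not on this list.

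The antiviral genes did not all depart in one direction. *Isg15*, the ubiquitin-like modifier itself, had 6.91 in control, 7.14 with benztropine, 7.87 with IFNγ and 8.54 with both agents. Its combined level was the highest of the 4 and lay 0.44 above the sum, within 1.5-fold. *Bst2*, which encodes tetherin, a membrane protein that holds budding virus particles at the cell surface, had 7.66, 7.88, 9.01 and 9.51 and lay 0.29 above the sum. It was chosen after its values were seen. *Isg15* was thus the gene of the list with the highest departure and *Oas1g* that with the lowest, at −0.65.

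**Figure D3:**
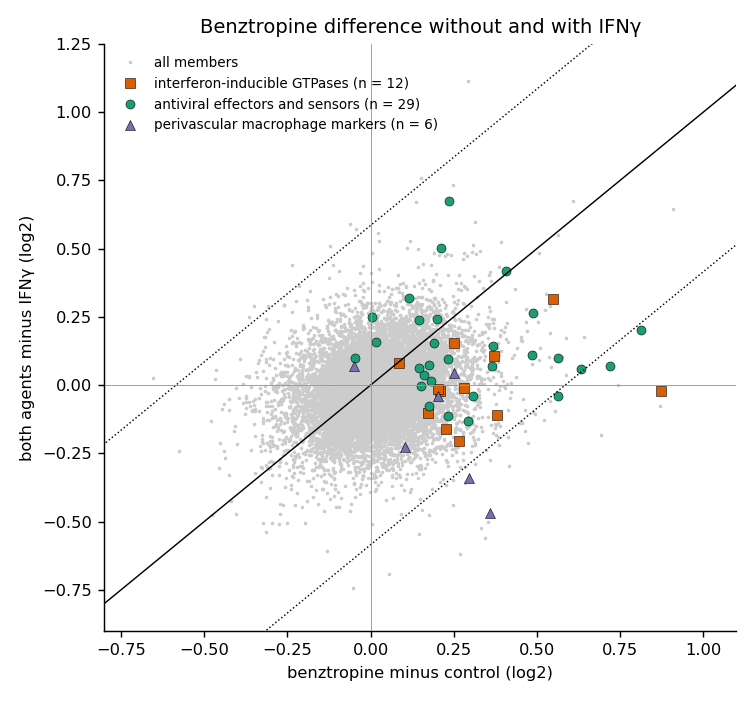
Log2 difference of benztropine minus control (horizontal axis) against both agents minus IFNγ (vertical axis) for all members (grey) and for 3 gene lists. The solid line is equal differences, which is additivity, and the dotted lines are departures of 1.5-fold. The GTPases lie right of 0 on the horizontal axis and around 0 on the vertical axis.

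Promoters of 4 of these genes are given because they carry motifs of the pathway and lie on both sides of the sum. Each runs from 250 bases before to 50 bases after the RefSeq gene start (build GRCm38.p6), 5′ to 3′ on the strand of the gene, with matches to the GAS motif TTCNNNGAA or the ISRE core (GAAA, any 2 bases, GAAA), searched on both strands, in capitals. Where matches overlap they form 1 run of capitals.
Oas1g (chr5:120887564-120887863, minus strand): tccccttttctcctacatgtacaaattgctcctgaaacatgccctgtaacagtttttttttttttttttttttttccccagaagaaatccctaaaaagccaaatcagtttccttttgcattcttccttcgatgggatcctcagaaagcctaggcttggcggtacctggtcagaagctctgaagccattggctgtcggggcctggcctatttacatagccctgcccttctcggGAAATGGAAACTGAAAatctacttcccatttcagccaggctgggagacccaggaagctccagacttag
Ddx60 (chr8:61927837-61928136, plus strand): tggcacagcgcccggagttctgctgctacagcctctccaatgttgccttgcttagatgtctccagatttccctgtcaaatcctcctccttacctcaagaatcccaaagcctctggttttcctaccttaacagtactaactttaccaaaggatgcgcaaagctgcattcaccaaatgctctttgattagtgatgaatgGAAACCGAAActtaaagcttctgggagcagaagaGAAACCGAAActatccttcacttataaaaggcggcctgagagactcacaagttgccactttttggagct
Isg15 (chr4:156200769-156201068, minus strand): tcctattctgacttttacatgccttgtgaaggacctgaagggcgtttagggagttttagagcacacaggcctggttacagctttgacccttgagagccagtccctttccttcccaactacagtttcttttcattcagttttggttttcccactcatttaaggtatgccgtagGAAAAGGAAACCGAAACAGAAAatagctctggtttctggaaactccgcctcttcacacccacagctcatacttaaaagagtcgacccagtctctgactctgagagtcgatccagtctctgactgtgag
Bst2 (chr8:71537423-71537722, minus strand): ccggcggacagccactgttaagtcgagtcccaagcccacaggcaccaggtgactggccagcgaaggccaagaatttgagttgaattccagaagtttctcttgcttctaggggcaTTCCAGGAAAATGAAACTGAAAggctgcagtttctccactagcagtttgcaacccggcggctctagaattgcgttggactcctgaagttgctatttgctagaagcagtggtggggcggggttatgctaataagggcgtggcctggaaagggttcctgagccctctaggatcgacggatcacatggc
By this choice the ISRE core was present in all 4 windows. It was found 2 times each in *Oas1g* and *Ddx60* with negative departures and 3 times in *Isg15* with a positive one. *Bst2* held 1 GAS motif, which overlaps the first of its 2 ISRE cores. Over the 27025 RefSeq genes with a promoter entry, an ISRE core was present in 3.99% and a GAS motif in 9.55%. An ISRE core was present in 12 of 21 matched antiviral members and in 6 of 6 matched GTPases. It was present in 0 of 5 matched genes called above the sum and in 2 of 24 called below it. The sterol element TCACNCCAC, held by 1.44% of genes, was found in 0 of these 24 genes. A match describes the sequence only, and the 4 genes shown were chosen to have a core and to lie on both sides of the sum.

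The interferon-inducible GTPases, which include the guanylate-binding proteins (Gbp) and immunity-related GTPases, had the highest median rise with IFNγ of the 35 lists. All 12 members passed 1.5-fold with IFNγ, with a median rise of 3.75 on the log2 scale. All 12 had a higher signal with benztropine than in control, with a median difference of 0.26, and in the presence of IFNγ 4 of 12 did, with a median of −0.02. All 12 departures were below 0, against 61.6% of all members, with a median of −0.27, but *Iigp1* alone passed 1.5-fold. Of the 6 measured GTPases that were not members, *Gbp4*, *Gm12250* and *F830016B08Rik* had values below 0, and *Gm4841* (0.98), *Gbp5* (0.15) and *Gbp6* (0.12) above 0, each with signals under background on some or all arrays. *Gbp9* had 8.19 in control, 8.57 with benztropine, 10.68 with IFNγ and 10.58 with both agents, a departure of −0.49. *Gbp8* was at the other end, at −0.004, with 7.35, 7.43, 12.35 and 12.43, although IFNγ raised it nearly as much as *Iigp1*.

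A wider view was taken by the mean of both IFNγ differences, without and with benztropine, a grouping chosen after the data were seen. Of 28 members raised past 4-fold by this mean, 23 departed below 0, with a median of −0.22, and of 181 raised between 1.5-fold and 4-fold 139 did, with a median of −0.16. Among 13747 members within 1.5-fold the share was 61.3% and the median −0.04. Of 14 members lowered past 1.5-fold, 13 departed below 0, with a median of −0.27.

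The size of these departures rests on the log2 scale, on which additivity means that folds multiply. When the single effects were added as unlogged signals, the combined level of *Iigp1* was 1.04-fold below the sum, that of *Oasl2* 1.02-fold, *Oas1g* 1.14-fold, *Ifi44l* 1.19-fold and *Ddx60* 1.31-fold. None of these then passed 1.5-fold. Over the GTPases the median departure was −0.05 on this scale, and over the antiviral list also −0.05, beside −0.04 for all members. In members raised past 4-fold the median was −0.02. Of the 38 members below the sum 17 passed 1.5-fold on both scales, and of the 10 above it 7 did.

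**Figure D4:**
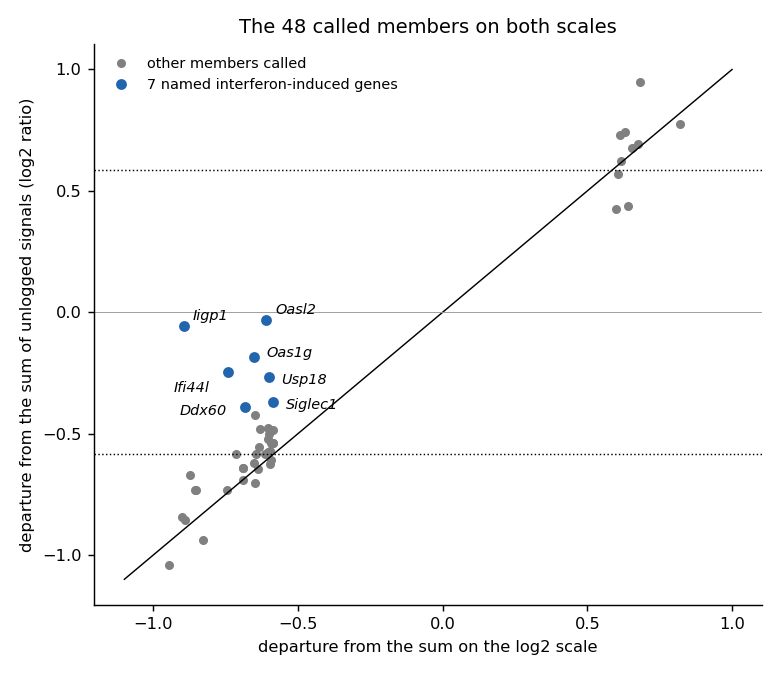
Departure from the sum of unlogged signals, as the log2 ratio of measured over expected (vertical axis), against departure on the log2 scale (horizontal axis) for the 48 members called. The interferon-induced genes (blue) lie nearer to 0 on the vertical axis, *Iigp1* at −0.06 and *Oasl2* at −0.03, while most other members lie near the line of equal values or beyond the dotted lines at 1.5-fold.

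Genes of antigen presentation stayed within 1.5-fold of the sum. Of 8 members for MHC class I and its activator *Nlrc5*, 0 passed 1.5-fold, and the departures ran from −0.34 for *H2-T24* to 0.18. *H2-T23*, a nonclassical class I gene, had 6.94 in control, 7.85 with benztropine, 9.37 with IFNγ and 10.01 with both agents. Benztropine thus gave a 1.88-fold higher signal without IFNγ and a 1.56-fold higher one with it, and its departure was −0.26 on the log2 scale and 0.43 on unlogged signals. *H2-T23* therefore changed its side of the sum with the scale. The 13 genes of class I peptide supply, among them the immunoproteasome subunits *Psmb8* (−0.24) and *Psmb10* (−0.25), had a median of −0.07. Of these 13, 10 were below 0, against 61.6% of all members. The 5 members for MHC class II had a median of 0.06, with values from −0.28 to 0.24, and 31 constitutive proteasome genes one of 0.02.

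In JAK-STAT signaling, 0 of 26 members passed 1.5-fold and the median was −0.01. *Irf1*, a transcription factor gene induced early by IFNγ, had 7.60 in control, 7.47 with benztropine, 9.34 with IFNγ and 9.64 with both agents, 0.43 above the sum. *Irf7*, which amplifies type I interferon responses, had 7.61, 8.02, 8.98 and 8.99, 0.41 below it. The 2 regulators differed in the benztropine signal without IFNγ, which was below control for *Irf1* and above it for *Irf7*. They differed also in the presence of IFNγ, where the benztropine difference was 0.29 for *Irf1* and 0.003 for *Irf7*. Neither departure passed 1.5-fold.

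Several genes of macrophages departed below the sum with another pattern, in which the level with both agents was lower than with either agent alone. This pattern was not particular to them, since 28 of the 38 members below the sum had it. *F13a1*, which encodes the A subunit of coagulation factor XIII and marks perivascular and other tissue macrophages, had 8.52 in control, 8.88 with benztropine, 8.09 with IFNγ and 7.62 with both agents. The combined level was 1.78-fold below the sum of 8.45. IFNγ lowered the signal by 0.43 without benztropine and by 1.26 with it. *Mrc1*, the mannose receptor gene, had 10.20, 10.49, 10.15 and 9.81 on the same arrays. IFNγ made a difference of −0.04 without benztropine and of −0.68 with it, and the departure was −0.64. Both genes also passed 1.5-fold on unlogged signals, at −0.94 and −0.65.

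*Ms4a4a*, a membrane-spanning gene of macrophages, had 7.15 in control, 7.71 with benztropine, 6.98 with IFNγ and 6.89 with both agents, a departure of −0.65. *Fcna*, which encodes the lectin ficolin A of the complement system, had 6.75, 7.10, 7.42 and 6.92. Each agent alone gave a higher signal of *Fcna* than control, and together they gave a level 1.81-fold below the sum. *Naip5*, an inflammasome sensor of bacterial flagellin, likewise had 7.10 in control, 7.25 with benztropine, 7.69 with IFNγ and 7.15 with both agents. Signals of *Fcna* and *Naip5* lay between 6.75 and 7.69, close to background. *Siglec1*, the sialic acid-binding lectin of macrophages, had 9.39, 9.88, 10.35 and 10.25, the same order as *Iigp1*, *Ddx60* and *Usp18*. *Ms4a4a* and *Siglec1* were named after their values were seen.

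Of 10 perivascular macrophage markers 6 were members, and 2 of these, *F13a1* and *Mrc1*, departed past 1.5-fold downwards, against 0.272% of all members. The median departure of the 6 was −0.29 on the log2 scale and −0.28 on unlogged signals. Of the 6, 5 were below 0, against 61.6% of all members, and *Folr2*, a folate receptor gene, was at 0.12. The wider microglia and macrophage list had the same lowest and highest arrays with smaller differences. The 22 members had a median signal of 10.28 in control, 10.40 with benztropine, 10.38 with IFNγ and 10.24 with both agents. Their median departure was −0.05, with 17 of 22 below 0, against 61.6% of all members, and 0 past 1.5-fold. *Ptprc*, the leukocyte phosphatase CD45, and *Itgam*, the integrin CD11b, had the lowest departures of this list, at −0.34 each. A part of cell composition in these values was not tested, and in bulk RNA fewer cells of a type and less RNA per cell cannot be told apart.

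The largest departure of all members with 1 symbol was that of *Lcn2*. It encodes lipocalin 2, which binds bacterial siderophores and is a marker of reactive astrocytes. *Lcn2* had 8.98 in control, 9.85 with benztropine, 8.78 with IFNγ and 8.70 with both agents. Benztropine gave a 1.83-fold higher signal without IFNγ and a difference of −0.08 with it. The combined level was 1.93-fold below the sum, and 2.06-fold below it on unlogged signals.

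Genes known as acute phase or inflammatory partners of *Lcn2* also had their highest signal with benztropine alone but stayed within 1.5-fold. *Saa3*, a serum amyloid A gene of inflamed tissue, had 6.90 in control, 7.49 with benztropine, 7.10 with IFNγ and 7.14 with both agents, a departure of −0.55. *Steap4*, a metalloreductase gene, had 8.10, 8.74, 7.70 and 7.88, a departure of −0.47, and it was added after its values were seen. The order of the other 3 arrays differed between these genes. Over the 13 members of the acute phase and iron list the median was −0.06, and 1, *Lcn2*, passed 1.5-fold downwards, against 0.272% of all members. Over 27 reactive astrocyte genes the median was −0.07, and the 2 past 1.5-fold downwards were *Lcn2* and *Iigp1*. Both are also counted in another list, *Iigp1* among the GTPases, so these are not separate results.

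Other members below the sum were mixed in kind. *Atp5g1*, which encodes the c subunit of mitochondrial ATP synthase, had 6.91 in control, 7.25 with benztropine, 7.20 with IFNγ and 6.65 with both agents, the last barely above the background level of 6.64. *Acot9*, which encodes a mitochondrial acyl-CoA thioesterase, had 7.04, 7.37, 7.78 and 7.25. In both genes each agent alone gave a higher signal than control and the pair gave the lowest or second lowest, with departures of −0.90 and −0.86. The nuclear respiratory chain as a list had a median of −0.0035 over 24 members, with 0 past 1.5-fold.

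Small noncoding RNAs were also found. *Snord13*, a C/D box small nucleolar RNA, had 9.58 in control, 9.52 with benztropine, 9.63 with IFNγ and 8.88 with both agents. Only the array with both agents was low, and the departure was −0.69. *Mir5123* had 8.19, 8.25, 8.69 and 8.003, a departure of −0.75. Its mature sequence is given because it was the called microRNA with an entry in the RefSeq table (chr4:40850057-40850080, minus strand, GRCm38.p6), with the seed, bases 2 to 8, in capitals.
mmu-miR-5123: uGUAGAUCcauaugccauggugug
*Mir669m-1* departed upwards, at 0.68, with 7.41 in control, 7.18 with benztropine, 7.33 with IFNγ and 7.77 with both agents. The array probes of such genes also report precursors and host transcripts, so these values are not levels of the mature RNA.

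Some probe sets matched several genes and cannot be assigned to 1 of them. The probe set shared by 13 histone H4 genes, among them *H4c1*, had 9.13 in control, 9.65 with benztropine, 10.05 with IFNγ and 9.93 with both agents, a departure of −0.65. That of 10 histone H2A genes, among them *H2ac4*, had 7.09, 7.62, 6.99 and 6.94, a departure of −0.60. The histone H4 probe set was thus higher than control on all 3 treated arrays, and the H2A one with benztropine alone. The small nucleolar RNA *Snora17* and its host *Snhg7* had 8.12, 8.39, 8.35 and 7.73, a departure of −0.89. *Snord68*, which lies within the ribosomal protein gene *Rpl13*, shared a probe set with it that had the highest departure of all members, 0.82, with 7.98 in control, 8.27 with benztropine, 7.75 with IFNγ and 8.86 with both agents.

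The other members called below the sum departed by −0.71 to −0.59. *Stc1*, which encodes the secreted hormone stanniocalcin, had 8.89 in control, 9.11 with benztropine, 8.80 with IFNγ and 8.43 with both agents. *Rab3il1*, which encodes an exchange factor of Rab GTPases, had 8.43, 8.82, 8.82 and 8.61. *Stc1* was lowest with both agents and *Rab3il1* in control, with departures of −0.59 and −0.61. *Pde10a*, a cyclic nucleotide phosphodiesterase gene, and *Ddx19b*, an RNA helicase gene, departed by −0.59 each, with control signals of 6.72 and 7.01. *Zfp607a* stood at −0.69, *2610028H24Rik* at −0.71 and *Olfr417* at −0.64, the last an olfactory receptor gene of the kind that set the background. The rest with 1 symbol, from *Ctrcos* at −0.63 to *Scgb3a1* at −0.59, were *Ssxb8*, *LOC100861738*, *Lrguk*, *2610042L04Rik*, *Fgfbp3* and *2210409D07Rik*. The other shared probe sets were those of *Scgb1b12* and *Scgb1b19* (−0.65) and of *Pdap1*, *Arpc1b* and *Gm5637* (−0.60).

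Of the 38 members below the sum, 28 had a combined level under that of either agent alone, and 29 did not pass 1.5-fold with benztropine in the absence or the presence of IFNγ. In 6 of 38 benztropine passed 1.5-fold without IFNγ only, and these were *Lcn2*, *Iigp1*, *Gm8225*, *Ifi44l*, *Oas1g* and *Oasl2*. In 3 it passed with IFNγ only. Control was the lowest array in 22 of the 38 and the array with both agents in 16. Neither single-agent array was the lowest in any of the 38. The call itself favours low control or combined signals and high single-agent signals, so these counts follow in part from the selection.

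Above the sum, the call favours the opposite order, with low single-agent signals, and the 10 members showed it. In all 10 IFNγ alone gave a lower signal than control, while 49.4% of all members were above control with IFNγ. In 9 the combined level was above that of either agent alone, which the call also favours. *Smarca5*, which encodes the ATPase of ISWI chromatin remodelers, had 8.92 in control, 8.26 with benztropine, 8.54 with IFNγ and 8.57 with both agents. It was lower than control on all 3 treated arrays, and the combined level was 1.60-fold above the sum, and 1.93-fold above it on unlogged signals. *Zfp932*, a zinc finger gene, had 7.76, 7.64, 6.87 and 7.38, so that IFNγ made a difference of −0.89 alone and of −0.26 beside benztropine. *Unc119*, which encodes a chaperone of lipid-modified proteins, had 7.89, 7.83, 7.47 and 8.06, a departure of 0.65.

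*Atp5l*, which encodes the g subunit of mitochondrial ATP synthase, had 9.67 in control, 9.63 with benztropine, 9.45 with IFNγ and 10.02 with both agents. Its departure of 0.62 was opposite to that of *Atp5g1* in the same enzyme. *Fabp5*, a fatty acid-binding protein gene, had 3 member probe sets, at 0.61, 0.49 and 0.08, of which 1 passed 1.5-fold. *Pi4kb*, a phosphatidylinositol kinase gene, had 2, at 0.60 and −0.04, and *Ighm*, the immunoglobulin heavy chain locus, had 1 at 0.61 beside others down to −0.37. Of *Fabp5* a second probe set departed in the same direction within 1.5-fold, while for *Pi4kb* and *Ighm* the departure was that of 1 probe set and was not shared by the others.

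Among the genes that the study names for benztropine, *Dcn* was not a member, since its signal of 6.39 with IFNγ was below background. *Dcn*, which encodes the matrix proteoglycan decorin, had 7.29 in control, 8.40 with benztropine and 6.99 with both agents. *Klra9* and *Hamp* were below background on all arrays, where departures of −1.45 and 1.14 do not measure a fold. *Rmnd5a*, a subunit gene of a ubiquitin ligase, was a member at 0.13. The study picked these genes from these same 4 arrays, so they are no independent evidence.

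The remaining lists stayed near the median of all members, and of 35 lists 5 held a member past 1.5-fold besides the short list of genes that the study names for benztropine. Complement had a median of −0.09 over 13 members, with *Cfp*, the gene of properdin, lowest at −0.51. The NF-κB list had −0.12 over 18 members, and 15 of them were below 0, against 61.6% of all members. Cholesterol synthesis and uptake had −0.07, lysosomal genes −0.03, cell cycle genes −0.05 and ribosomal proteins 0.01, each with 0 past 1.5-fold. For the list of benztropine targets and muscarinic signaling, 4 of 15 measured genes were members. Among them were the muscarinic receptor gene *Chrm1* at −0.34 and the acetylcholinesterase gene *Ache* at −0.18. A second *Chrm1* probe set, below background on all arrays, was at 0.22. The reference genes of the PCR of the study, *Tpt1*, *Ap1g1* and *Eef1a1*, had a median of −0.05 and values down to −0.21 for *Ap1g1*.

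**Figure D5:**
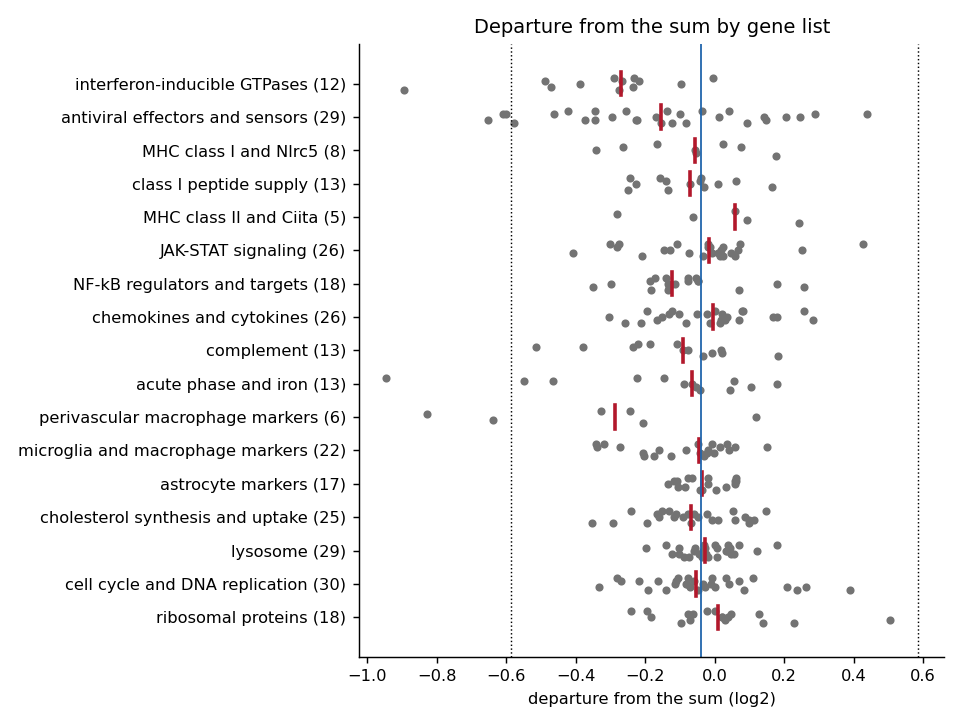
Departure from the sum (log2, horizontal axis) of each member gene (grey points) for 17 of the 35 gene lists, with the number of members in brackets. Red bars are list medians, the blue line is the median of all members at −0.04, and dotted lines are 1.5-fold. The medians of the GTPases (−0.27) and perivascular macrophage markers (−0.29) are the lowest shown.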

How the data were processed

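The authors deposited log2 signals, computed by RMA in Affymetrix Expression Console (background correction, quantile normalization over arrays, summary per probe set), from RNA of 3 cultures mixed per array. They were used as deposited. The annotation table gave 1 symbol to 23521 probe sets and several to 1820, and 16004 were unnamed here and left out. A genome build for the array design is not given in the sources used here. No test was possible with 1 array per condition, and the number of arrays limits the precision. Quantile normalization and RMA summaries act on all 4 arrays together, so a shift of one array moves the departures of many genes.

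Departures were called past 1.5-fold, the threshold of the study. Named genes were the 15 highest and 15 lowest members with 1 symbol, the 2 members of each of 35 lists farthest from 0, 7 genes fixed by name and the probe sets next to the limits. All other genes (*Bst2*, *Eef1a1*, *Folr2*, *Gbp8*, the GTPases that were not members, *H2-Ab1*, *Ms4a4a*, *Oas2*, *Siglec1*, *Steap4*, *Usp18*, the T cell genes, and called members past the 15 lowest) were chosen after their values were seen. A gene in a list was the mean of its member probe sets. The members and lists were chosen with earlier results of these data known. Alternatives were 2-fold, the 99th percentile as background, 1-symbol probe sets, 1 value per symbol, quantile normalization, median centring, a loess trend removed (span 0.3), unlogged signals, weaker background filters, and unnamed probe sets kept. On unlogged signals the expected level was held at or above background. The steps were tested on simulated data. Python 3.11.15, numpy 2.4.6, pandas 2.3.3, statsmodels 0.14.6 and matplotlib were used. Promoters and microRNAs are those of RefSeq, GRCm38.p6, matched by symbol.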

Additional observations from a re-analysis of the deposited data

Results flagged for a closer look

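Among the members picked by the naming rule, 13 genes moved past 1.2-fold one way with an agent given alone and past 1.2-fold the other way when the other agent was present. Called members outside that rule did so too, among them *Olfr417*, *Ctrcos*, *Scgb3a1* and *LOC100861738*. These differences were not tested, since each rests on single arrays.

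With benztropine, *F13a1* differed by 0.36 without IFNγ and by −0.47 with it (departure −0.83), and *Mrc1* by 0.30 and −0.34 (−0.64). *Fcna* differed by 0.35 and −0.50 (−0.85), *Acot9* by 0.33 and −0.52 (−0.86), *Atp5g1* by 0.34 and −0.56 (−0.90) and *2610028H24Rik* by 0.42 and −0.30 (−0.71). In the opposite order, *Defa39*, an alpha-defensin gene, differed by −0.35 and 0.29 (0.64) and *Pi4kb* by −0.31 and 0.29 (0.60).

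With IFNγ, *Atp5g1* differed by 0.30 without benztropine and by −0.60 with it (−0.90), *Gm8225* by 0.61 and −0.26 (−0.87) and *Zfp607a* by 0.33 and −0.36 (−0.69). *Fabp5* differed by −0.34 and 0.27 (0.61), *Ighm* by −0.35 and 0.27 (0.61) and *Smarca5* by −0.37 and 0.31 (0.68). For *Fabp5*, *Ighm* and *Pi4kb* these are the values of 1 probe set each.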

How the results depend on the processing

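The counts of members past 1.5-fold, 10 above and 38 below the sum, moved with most settings. They were 0 and 0 at 2-fold, 4 and 15 with the 99th percentile as background, and 6 above with 1 value per symbol. Below the sum, 24 remained of the 38 after quantile normalization, 23 after centring and 25 after removal of the loess trend, and 16 lay above the sum after centring. On unlogged signals 17 lay above and 19 below. With a background filter on at least 1 array the counts were 32 and 70, with no filter 216 and 269, and with unnamed probe sets kept 246 and 237. The SD of 0.155 became 0.136 with the 99th percentile, 0.213 with no filter and 0.225 with unnamed probe sets. No called member picked by the naming rule changed its sign after quantile normalization, centring, loess correction or on unlogged signals. On unlogged signals 17 of the 38 and 7 of the 10 stayed past 1.5-fold, and of the members picked by the naming rule those that fell inside it were *Iigp1*, *Ifi44l*, *Ddx60*, *Oas1g*, *Oasl2*, *Defa39*, *Fabp5* and *Pi4kb*. No replicate could be left out and no paired analysis was possible because each condition had 1 array. Low signals limit the departures, whose spread is larger near background.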

Other observations

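Probe sets without a gene symbol departed more often than the members. Of 5288 that were above background on all arrays, 236 lay above the sum past 1.5-fold and 199 below it.

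By the mean of both benztropine differences, 128 members were raised past 1.2-fold and 81 lowered. Of the 128 raised, 64 departed below 0, with a median of −0.004, and of the 81 lowered 48 did, with a median of −0.06. Over all members the share below 0 was 61.6%. These groupings were chosen after the data were seen, and whether they differ was not tested.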
